A study of Mus musculus with 18 samples.

Results

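Rreb1 and Mast4 are 2 of the 38561 genes counted in adult mouse brain lacking Pcm1, the scaffold protein of centriolar satellites. They were chosen by their readout: both were known from these same libraries to be lower in Pcm1-/- mice, and both lie away from the chromosomal surroundings of the trapped Pcm1 gene, on chromosome 13 rather than chromosome 8. The difference between genotypes is therefore a description of the choice, and no test is given for it. RNA was sequenced from the frontal cortex, striatum and hippocampus of 3 wild-type (WT) and 3 Pcm1-/- littermates, which gave 6 groups of 3 libraries and 18 libraries in all. All animals were adults on a C57 Bl6J background, the Pcm1-/- allele was a gene-trap insertion brought in through embryonic stem cells and backcrossed for at least 3 generations. The 3 regions of an animal are not independent animals, so a comparison of genotypes rests on 3 against 3 mice in every region.

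Rreb1 encodes the Ras-responsive element binding protein, a large zinc finger transcription factor that is phosphorylated downstream of Ras and the MAP kinases ERK1 and ERK2, works with SMAD proteins at TGF-beta target genes and recruits corepressors such as CtBP. Mast4 belongs to the microtubule-associated serine/threonine (MAST) kinases, which carry a PDZ domain beside the kinase domain. The best-studied relatives phosphorylate the small proteins Arpp19 and Ensa, which then inhibit the phosphatase PP2A, in dividing cells through Mastl (Greatwall) and in striatal neurons through an isoform of Arpp19.

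Both genes are single protein-coding loci of chromosome 13 in the mouse build GRCm38. Rreb1 (ENSMUSG00000039087) lay at chr13:37778400-37952005 on the plus strand, with 13.994 kb of annotated exon within a span of 173.606 kb. Mast4 (ENSMUSG00000034751) lay at chr13:102732486-103334497 on the minus strand, with 32.326 kb of exon within 602.012 kb, and the distance between the members was 64.7805 Mb. The 3′ end of Mast4 runs into Cd180 on the opposite strand, which had 64 to 241 counts per library against 1200 to 3278 for Mast4. The other genes inside Mast4, which are 1700099I09Rik and Gm17160 in antisense and the pseudogene Gm6211, had at most 2 counts in any library.

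RefSeq promoter windows of the build GRCm38.p6, which run from 250 bases before to 50 bases after a transcript start, were matched for both members, 4 for Rreb1 and 1 for Mast4. The CpG-rich windows are shown, since both genes have a window of this kind, and 6 short motifs were searched on both strands in each. Capitals mark every match to the GC box GGGCGG, the CCAAT box CCAAT, the TATA box TATAAA, the E-box CACGTG, the cAMP response element TGACGTCA and the X-box sequence GTTGCC, one arm of that motif, and no marked matches overlap.
Rreb1, chr13:37826662-37826961, plus strand: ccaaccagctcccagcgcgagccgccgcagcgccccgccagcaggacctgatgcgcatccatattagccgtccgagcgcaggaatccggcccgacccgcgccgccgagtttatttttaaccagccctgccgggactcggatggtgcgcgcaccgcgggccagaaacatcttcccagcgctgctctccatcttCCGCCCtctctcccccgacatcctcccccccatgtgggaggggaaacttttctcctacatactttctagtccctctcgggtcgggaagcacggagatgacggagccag
Rreb1, chr13:37825788-37826087, plus strand: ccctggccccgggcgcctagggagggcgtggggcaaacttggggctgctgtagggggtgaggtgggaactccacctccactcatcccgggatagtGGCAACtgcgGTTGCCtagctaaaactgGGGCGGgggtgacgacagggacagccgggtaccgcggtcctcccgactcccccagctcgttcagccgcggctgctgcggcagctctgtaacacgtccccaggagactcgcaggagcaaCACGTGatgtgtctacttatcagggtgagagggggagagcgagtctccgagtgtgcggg
Mast4, chr13:103334443-103334742, minus strand: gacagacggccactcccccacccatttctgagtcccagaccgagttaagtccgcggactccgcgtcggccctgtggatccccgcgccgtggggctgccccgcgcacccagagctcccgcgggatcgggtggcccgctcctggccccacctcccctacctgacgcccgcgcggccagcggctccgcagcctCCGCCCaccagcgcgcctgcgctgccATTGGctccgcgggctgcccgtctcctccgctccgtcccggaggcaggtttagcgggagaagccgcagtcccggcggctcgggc

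The Mast4 window had a GC content of 75.0% and 37 CpG dinucleotides, against medians of 52.7% and 7 over all 32851 promoter windows. The Rreb1 windows shown had 64.7% GC with 29 CpG and 66.0% GC with 21 CpG, while the other Rreb1 windows, further into the locus, had 46.7% with 6 CpG and 46.3% with 2 CpG. A GC box was present in all 3 windows shown and in 35.7% of all promoters. A CCAAT box was present in the Mast4 window and in 37.4% of all promoters. The second Rreb1 window also held an E-box, found in 7.15% of promoters, and 2 matches to the X-box sequence, 1 on each strand, which was found in 12.5%. None of the windows shown held a TATA box, which 13.6% of promoters had, or the cAMP response element, which 1.79% had. These are matches of letters only, and the libraries do not tell which start was used.

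The libraries held 24950537 to 33405081 gene counts each, with 86.8% to 89.2% of the counted reads assigned to genes. Pcm1 itself was lowered in every Pcm1-/- library, to 9.10% of the WT mean in frontal cortex, 10.2% in striatum and 8.89% in hippocampus, and no library went against its genotype label. The summed level of 8 striatal projection neuron markers was 6985 to 8951 counts per 1000000 (CPM) in striatum and 138 to 291 CPM elsewhere, and markers of cortical and hippocampal neurons were likewise highest in their own region. WT striatum replicate 3 stood apart with 6064 CPM over 6 choroid plexus markers, against 33.0 to 168.5 CPM in the other striatal libraries. In hippocampus these markers ranged from 225.7 CPM in Pcm1-/- replicate 2 to 6334 CPM in WT replicate 1. The WT striatal libraries were all run on lane 5 and the Pcm1-/- ones on lanes 3 and 4, which means that a lane difference and a genotype difference cannot be told apart in that region. Because these are whole-tissue libraries, a smaller number of cells and a smaller amount of RNA in each cell cannot be told apart either. By counts from the Y chromosome, 1 of the 3 animals in each genotype was male.

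Rreb1 was lowest in the frontal cortex of Pcm1-/- mice. The 3 WT cortices had 27.3, 24.7 and 26.7 CPM of Rreb1 and the 3 Pcm1-/- cortices had 14.8, 15.4 and 13.1 CPM. The Pcm1-/- values lay well below the WT values with no overlap. The means were 26.2 ± 1.37 CPM in WT and 14.5 ± 1.19 CPM in Pcm1-/- (SD, n = 3 each), so that the mutant level was 55.2% of WT, or -0.86 as a log2 fold change (standard error, SE, 0.0838). Across all genes tested, 9.28% had every Pcm1-/- cortex below every WT cortex and 1.74% passed the edgeR test between genotypes, and nothing is read from either share for a gene chosen on this contrast. The raw counts behind these levels were 648 to 779 in WT and 374 to 500 in Pcm1-/- cortex.

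In the striatum the level of Rreb1 differed less. It was 29.2, 32.2 and 25.1 CPM in WT and 26.4, 24.4 and 26.1 CPM in Pcm1-/- mice, and the groups overlapped. The mutant mean of 25.6 ± 1.08 CPM was 88.9% of the WT mean of 28.8 ± 3.55 CPM, a log2 fold change of -0.17 (SE 0.0981). The lowest WT value was that of replicate 3, the library with the choroid plexus signal, and without it the log2 fold change was -0.26. Without WT striatum replicate 2 it was -0.08.

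In the hippocampus Rreb1 was variable within each genotype. The WT libraries had 58.1, 38.2 and 28.0 CPM and the Pcm1-/- libraries 24.9, 37.2 and 23.5 CPM, and the groups overlapped. The means of 41.4 ± 15.3 CPM and 28.5 ± 7.52 CPM gave a mutant level of 68.9% of WT and a log2 fold change of -0.56 (SE 0.272). The value of 58.1 CPM in WT replicate 1 was the highest of all 18 libraries, and without that library the log2 fold change was -0.23. That library also had the highest choroid plexus sum and the highest oligodendrocyte sum of the hippocampal libraries, while Pcm1-/- replicate 2, the mutant with the most Rreb1, had the lowest sums of both, 225.7 and 3843 CPM. The part of either in the Rreb1 level was not tested. The same WT animal gave the highest WT level of Rreb1 in each of the 3 regions.

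Mast4 differed most between genotypes in the striatum. The WT striata had 61.6, 65.2 and 61.6 CPM of Mast4 and the Pcm1-/- striata 43.7, 45.8 and 43.4 CPM. The replicates of each genotype lay close together and the groups did not overlap, a pattern that 9.39% of all genes tested showed in the striatum in this direction, while 0.0285% passed the edgeR test between genotypes there. As for Rreb1, nothing is read from these shares. The mean level was 62.8 ± 2.10 CPM in WT and 44.3 ± 1.30 CPM in Pcm1-/- (SD, n = 3 each), or 70.5% of WT (log2 fold change -0.50, SE 0.0574). Leaving out WT striatum replicate 3 gave -0.52, and the 6 fits that each left out a striatal library gave -0.53 to -0.47. Since all WT striata shared a lane that no mutant striatum was run on, this difference cannot be told apart from one of lane.

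In frontal cortex Mast4 was at 76.1, 77.0 and 90.1 CPM in WT and 78.1, 68.3 and 80.0 CPM in Pcm1-/- mice. The groups overlapped, with means of 81.1 ± 7.85 and 75.5 ± 6.29 CPM, a mutant level of 93.1% of WT and a log2 fold change of -0.11 (SE 0.0842). This small difference rested on single libraries: it was -0.03 without WT replicate 3 and -0.05 without Pcm1-/- replicate 2. In hippocampus Mast4 was at 111.6, 85.6 and 108.6 CPM in WT and 93.4, 82.7 and 98.1 CPM in Pcm1-/- mice, again with overlap. The means of 101.9 ± 14.2 and 91.4 ± 7.87 CPM put the mutant at 89.7% of WT, a log2 fold change of -0.18 (SE 0.123). The log2 fold change was -0.29 without WT replicate 2 and -0.10 without either WT replicate 1 or Pcm1-/- replicate 2. With lane as a covariate it was -0.28.

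The 2 genes thus had their separated groups in different regions, Rreb1 in frontal cortex and Mast4 in striatum, and neither was separated in hippocampus, where 6.46% of genes had every mutant library below every WT library and 0.0171% passed the edgeR test. Whether the genotype difference of either gene itself differed between regions was not tested, because that contrast chose the genes. The plot of both genes in every library shows these groups.

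**Figure D1:**
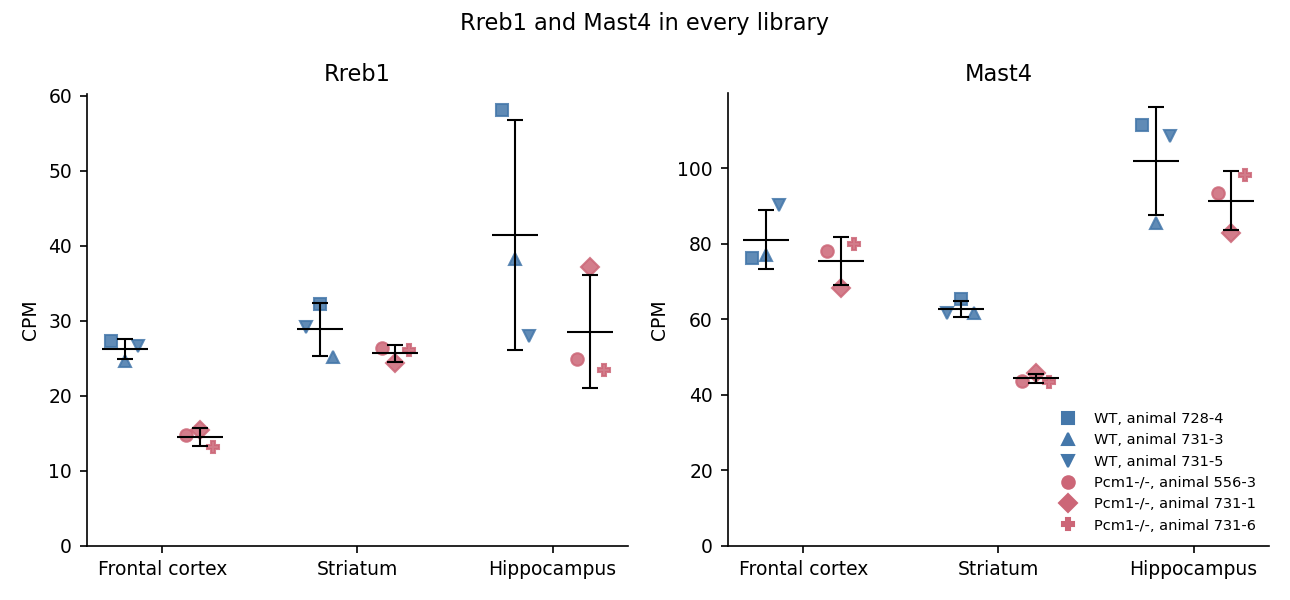
Rreb1 and Mast4 in CPM (linear axes from 0) by region, with a marker shape for each animal, blue for WT and red for Pcm1-/-, and the mean ± SD of 3 libraries in black. The mutant cortices sit at 13.1 to 15.4 CPM of Rreb1 below the WT cortices at 24.7 to 27.3 CPM, the mutant striata at 43.4 to 45.8 CPM of Mast4 below the WT striata at 61.6 to 65.2 CPM, and the other groups overlap.

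Comparison of the regions with each other asks where in the normal brain these genes are most abundant. It was tested in the WT libraries, which had also entered the genotype contrast that chose the genes, and the effect of that choice on the WT levels was not tested. In WT, the mean of Rreb1 was highest in hippocampus and Mast4 was highest in hippocampus, intermediate in frontal cortex and lowest in striatum.

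For Rreb1 in WT, the hippocampal level exceeded the cortical level by 0.66 on the log2 scale (SE 0.214, edgeR quasi-likelihood test, Benjamini-Hochberg adjusted p = 0.0420), and 3 of 3 animals showed this direction. With the animal as a block the difference was 0.61 (adjusted p = 0.0228 by edgeR). The call was fragile: without WT hippocampus replicate 1 the difference was 0.34 (edgeR adjusted p = 0.131), and it was lost on leaving out any of the 9 WT libraries except striatum replicate 3 and hippocampus replicate 3. Striatum and frontal cortex, neighbours in the order of levels, differed by 0.14 (SE 0.214, edgeR adjusted p = 0.639, or 0.560 with the animal as a block), with the striatum higher in 3 of 3 animals. This small difference was 0.36 with lane as a covariate, 0.05 without WT striatum replicate 2 and 0.23 without WT striatum replicate 3. Striatum was below hippocampus by -0.51 on the log2 scale (SE 0.213, edgeR adjusted p = 0.10) and lower in 2 of 3 animals. Without WT hippocampus replicate 3 this last difference was -0.72 and passed (edgeR adjusted p = 0.0139), without WT hippocampus replicate 1 it was -0.20 (0.359), and with lane as a covariate it was -0.24 (0.474). With the animal as a block the edgeR adjusted p was 0.0576. Such regional differences were common, since 41.5% of all genes tested differed between WT striatum and frontal cortex, 29.8% between hippocampus and frontal cortex and 29.2% between striatum and hippocampus.

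For Mast4 in WT, the striatum was lower than the hippocampus by -0.69 on the log2 scale (SE 0.109, edgeR adjusted p = 0.000692) and lower than the frontal cortex by -0.37 (SE 0.108, edgeR adjusted p = 0.0203), each in 3 of 3 animals. With the animal as a block the edgeR adjusted p-values were 0.000475 and 0.0110. Hippocampus was above frontal cortex by 0.33 (SE 0.108, edgeR adjusted p = 0.0440), also in 3 of 3 animals, with an adjusted p of 0.0241 under the animal block. The striatal level of Mast4 was below the hippocampal one in every fit that left out a library. The difference between striatum and cortex missed the threshold without WT cortex replicate 3 (edgeR adjusted p = 0.0736), WT striatum replicate 1 (0.0546) or WT striatum replicate 3 (0.0540). The difference between hippocampus and cortex was lost on leaving out any WT library except cortex replicate 3 and hippocampus replicate 2, with its lowest value of 0.26 without hippocampus replicate 1.

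In Pcm1-/- mice the regional differences are given as values with no test, since these libraries hold the low levels for which the genes were chosen. Rreb1 was higher in striatum and hippocampus than in frontal cortex, by 0.83 (SE 0.155) and 0.97 (SE 0.155) on the log2 scale, in 3 of 3 animals each. The striatal and hippocampal levels of Rreb1 were close, with a difference of -0.14 (SE 0.151) that turned to 0.10 without Pcm1-/- hippocampus replicate 2. Mast4 kept the regional order of WT, with striatum below frontal cortex by -0.76 (SE 0.0770) and below hippocampus by -1.04 (SE 0.0771), and hippocampus above frontal cortex by 0.27 (SE 0.0755), each in 3 of 3 animals.

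Per length of annotated exon, the level of Mast4 was among the lower ones of its kinase family. In WT frontal cortex the mean was 58.7 CPM per kb for Mast3, 24.0 for Mast2, 10.1 for Mast1, 2.51 for Mast4 and 0.409 for Mastl. Mast3, a brain-enriched member, headed the family in all 3 regions, with 56.1 CPM per kb in WT striatum and 65.0 in WT hippocampus. Mast1 dropped to 2.26 CPM per kb in WT striatum, near the 1.94 of Mast4, and Mastl, the mitotic member, stayed below 1 in every library. Rreb1 had 1.87, 2.06 and 2.96 CPM per kb in WT frontal cortex, striatum and hippocampus, and Mast4 had 2.51, 1.94 and 3.15. These values divide by the union of all annotated exons, which for Mast4 and Rreb1 includes exons of isoforms that brain may not use.

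**Figure D2:**
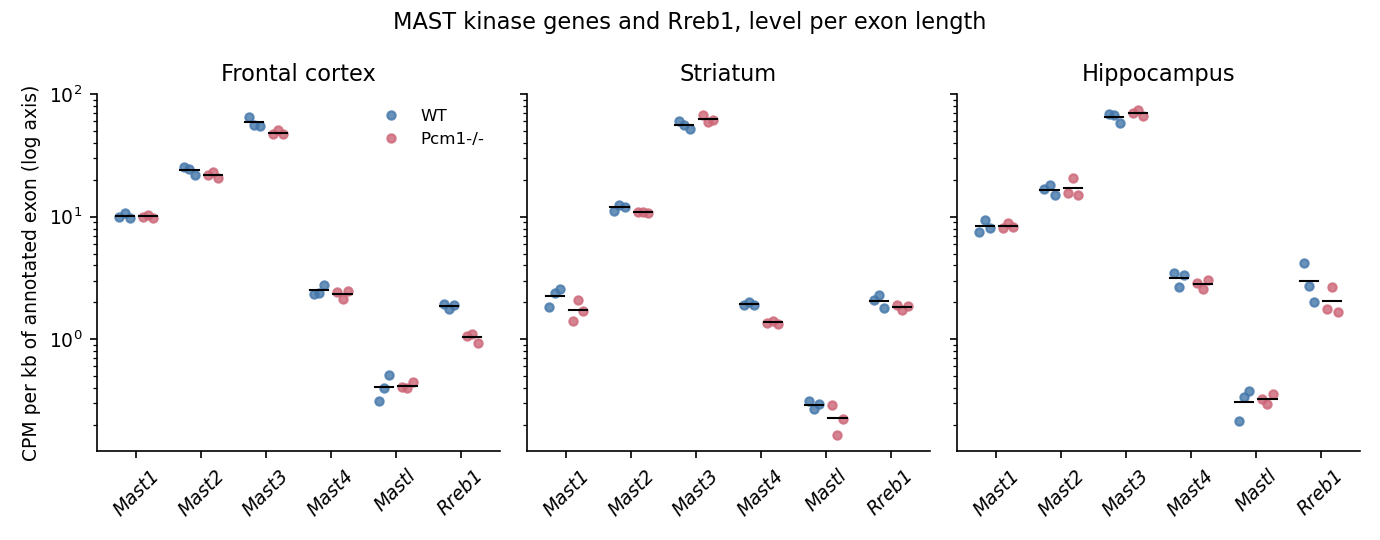
Level per kb of annotated exon (log axis) of the MAST kinase genes and Rreb1 in the 3 regions, with 1 point per library and a black line at the mean of 3. Mast3 heads every panel and Mastl is at the bottom, with Mast4 and Rreb1 between 1 and 5 in every library but 1 of Rreb1.

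None of the MAST kinase genes Mast1, Mast2, Mast3 and Mastl passed the edgeR test between genotypes with all libraries. In frontal cortex the Mast3 level was 349.8 ± 35.0 CPM in WT mice against 288.6 ± 11.9 CPM in mutants (log2 fold change -0.28, SE 0.0753, edgeR adjusted p = 0.111), a difference that DESeq2 called (adjusted p = 0.0197), as did edgeR without WT cortex replicate 3 (adjusted p = 0.0430). In striatum it was in the other direction, at 0.16 (SE 0.0806, edgeR adjusted p = 0.431), and in hippocampus at 0.09. Mast1, at 14.6 ± 2.57 CPM in WT and 11.2 ± 2.22 CPM in mutant striatum, had a log2 fold change of -0.38 (SE 0.176, edgeR adjusted p = 0.393), against -0.01 in both other regions. Mast2 was at -0.14 in frontal cortex, -0.13 in striatum and 0.02 in hippocampus, and Mastl at 0.02, -0.36 and 0.06, with adjusted p-values from edgeR of 0.365 to 0.976. Mutants lay below WT without overlap for Mast3 in frontal cortex and for Mast2 in striatum. Of all genes tested, 9.28% and 9.39% did so in these regions. No test of Mast4 against its relatives was made. Mast1 and Mast3 lie on chromosome 8, as does Pcm1.

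Of 95 genes in 6 lists related to Rreb1 or Mast4 by family or pathway, all of which were tested, 1 changed between genotypes in frontal cortex and none in striatum or hippocampus by the edgeR test. The gene was Mapk3, which encodes ERK1 at the end of the Ras cascade that acts on Rreb1. Mapk3 had 167.3, 175.3 and 169.7 CPM in the WT cortices and 127.8, 136.1 and 141.7 CPM in the Pcm1-/- cortices. Mapk3 fell from 170.8 ± 4.09 to 135.2 ± 7.0 CPM, with a log2 fold change of -0.34 (SE 0.0566) and an edgeR adjusted p of 0.0252. Every mutant cortex was below every WT cortex, which held for 9.28% of all genes tested. In striatum the log2 fold change of Mapk3 was -0.01 and in hippocampus -0.14, with overlapping groups. The call was lost with lane as a covariate (edgeR adjusted p = 0.0873) and on leaving out any cortical library other than WT replicate 3, with edgeR adjusted p-values up to 0.182, while the log2 fold change was -0.37 with lane and -0.38 to -0.30 on leaving out a library.

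The share of listed genes called, 1 of 95 in frontal cortex, stood beside 1.74% of all genes tested there. At an unadjusted p under 0.05, 14 listed genes passed in frontal cortex, 10 in striatum and 10 in hippocampus, where 15.3%, 13.5% and 9.89% of all genes did. The DESeq2 test called 3, 4 and 2 of them in the 3 regions, where it called 4.88%, 3.84% and 1.54% of the genes it gave an adjusted p. These shares are near those of all genes. Chosen here after their values were seen, the genes DESeq2 called were Mapk3, Mast3 and the ligand gene Tgfb1 in frontal cortex, all lower in mutants, the repressor Zeb2 and the receptor Tgfbr2, both lower, and the transcription factors Fosl2 and Egr1, both higher, in striatum, and Fosl2 and the exchange factor Rasgrp1, both higher, in hippocampus. The median log2 fold change over each list lay between -0.25 (MAST kinases in striatum) and 0.11 (ERK feedback and response genes in striatum), and the medians of all genes lay between -0.01 and 0.00.

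By list, the Ras-MAPK cascade had 28 genes, among them exchange factors, kinases and the ERKs, and apart from Mapk3 none passed the edgeR test in any region. Its medians were -0.01, 0.00 and 0.07 in frontal cortex, striatum and hippocampus. Of 18 ERK feedback and response genes, which include phosphatases, inhibitors of the Sprouty family and transcription factors, none passed by edgeR, and 5 in each region had a higher level in Pcm1-/- mice at an unadjusted p under 0.05. These were 27.8% of the list in each region, where 7.84%, 6.54% and 4.84% of all genes were higher at that threshold. Of these only the AP-1 subunit gene Fosl2, named after its values were seen, was among the 5 in all 3 regions, with log2 fold changes of 0.28, 0.93 and 0.55 and edgeR adjusted p-values of 0.317, 0.177 and 0.391. None of the 13 genes of the CtBP and SIN3A corepressor complexes passed by edgeR, with medians of -0.04, 0.01 and 0.04. None of the 17 TGF-beta and SMAD genes passed by edgeR, although single members ranged from -0.76 to 0.46 in striatum. None of the 15 genes of PP2A and its MAST-regulated inhibitors Arpp19 and Ensa passed by edgeR, with values between -0.12 and 0.07 in striatum and between -0.26 and 0.18 in hippocampus and medians of 0.03, 0.01 and 0.04.

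**Figure D3:**
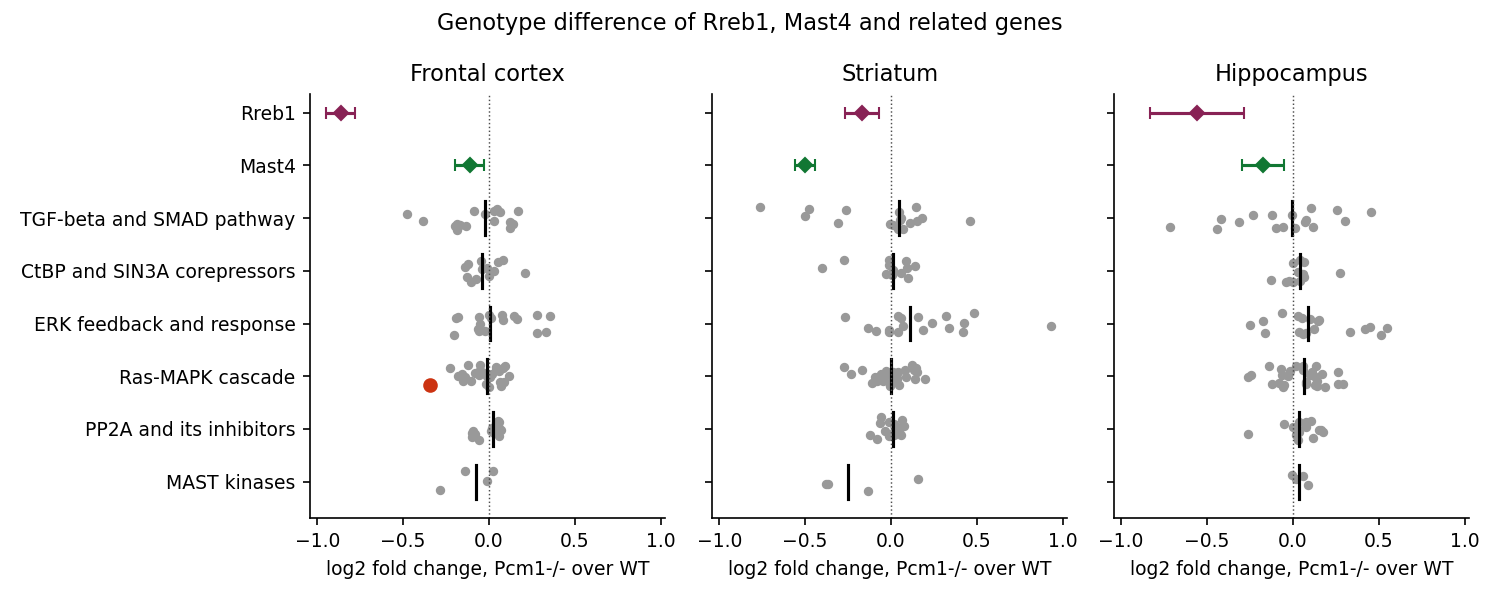
Log2 fold change of Pcm1-/- over WT in the 3 regions for Rreb1 and Mast4 (diamonds with SE), which were picked for this difference, and for each gene of the 6 lists (points, 1 per gene, with the list median as a black line). The single red point is Mapk3 in frontal cortex at -0.34, and all grey points did not pass the edgeR test.

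The genes around the members were then compared, as neighbours on the chromosome were not used to choose them. Within 2 Mb of the members lay 58 other annotated genes, and 38 of them were tested, 18 near Rreb1 and 20 near Mast4. None was called between genotypes by edgeR in any region. At an unadjusted p under 0.05 there were 9 of 38 in frontal cortex, 8 in striatum and 1 in hippocampus, or 23.7%, 21.1% and 2.63%, where 15.3%, 13.5% and 9.89% of all genes passed, and DESeq2 called 1, 1 and 0, the gene being Ly86 both times. The medians of the neighbours were 0.02, -0.01 and 0.01 on the log2 scale, against medians of all genes between -0.01 and 0.00. Leaving out WT cortex replicate 3, which raised the share of all genes called in frontal cortex from 1.74% to 4.70%, raised the number of neighbours called there from 0 to 4, which were Ly86, lower in mutants, and Ssr1, the zinc transporter Slc30a5 and the ubiquitin ligase Trim23, higher by 0.24 to 0.33 on the log2 scale.

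The nearest tested neighbours of Rreb1 are Ly86 on one side, 0.359 Mb away, and Ssr1 on the other, 0.0146 Mb away. Ssr1, a subunit of the translocon-associated complex of the endoplasmic reticulum, was slightly higher in Pcm1-/- mice, at 0.18, 0.21 and 0.12 in frontal cortex, striatum and hippocampus, with edgeR adjusted p-values of 0.295, 0.303 and 0.685. Ly86 encodes MD-1, a secreted partner of the receptor that Cd180 encodes, and both are expressed by microglia and B cells. Ly86 had 13.2, 10.7 and 8.70 CPM in WT and 8.12, 7.32 and 6.89 CPM in Pcm1-/- cortex, and the log2 fold changes were -0.55, -0.57 and -0.55 in the 3 regions, with edgeR adjusted p-values of 0.122, 0.147 and 0.581. Its groups did not overlap in cortex or striatum and overlapped in hippocampus. Of all genes tested, 9.28% in cortex and 9.39% in striatum had every mutant library below every WT library.

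Cd180, the gene that overlaps the end of Mast4, had log2 fold changes of -0.06, -0.49 and -0.57 in frontal cortex, striatum and hippocampus (edgeR adjusted p = 0.900, 0.243 and 0.530). In striatum Cd180 had 6.95, 8.68 and 8.34 CPM in WT and 4.79, 5.86 and 6.37 CPM in Pcm1-/- mice. Its mean there went from 7.99 to 5.67 CPM, or 71.0% of WT, and that of Mast4 from 62.8 to 44.3 CPM, or 70.5%. Whether reads of one of these genes were counted for the other was not tested. The other nearest neighbours of Mast4 were Pik3r1, the regulatory subunit of phosphoinositide 3-kinase, and Srek1, a splicing regulator. Pik3r1 stayed between -0.09 and 0.06 and Srek1 between -0.17 and -0.02 over the regions.

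**Figure D4:**
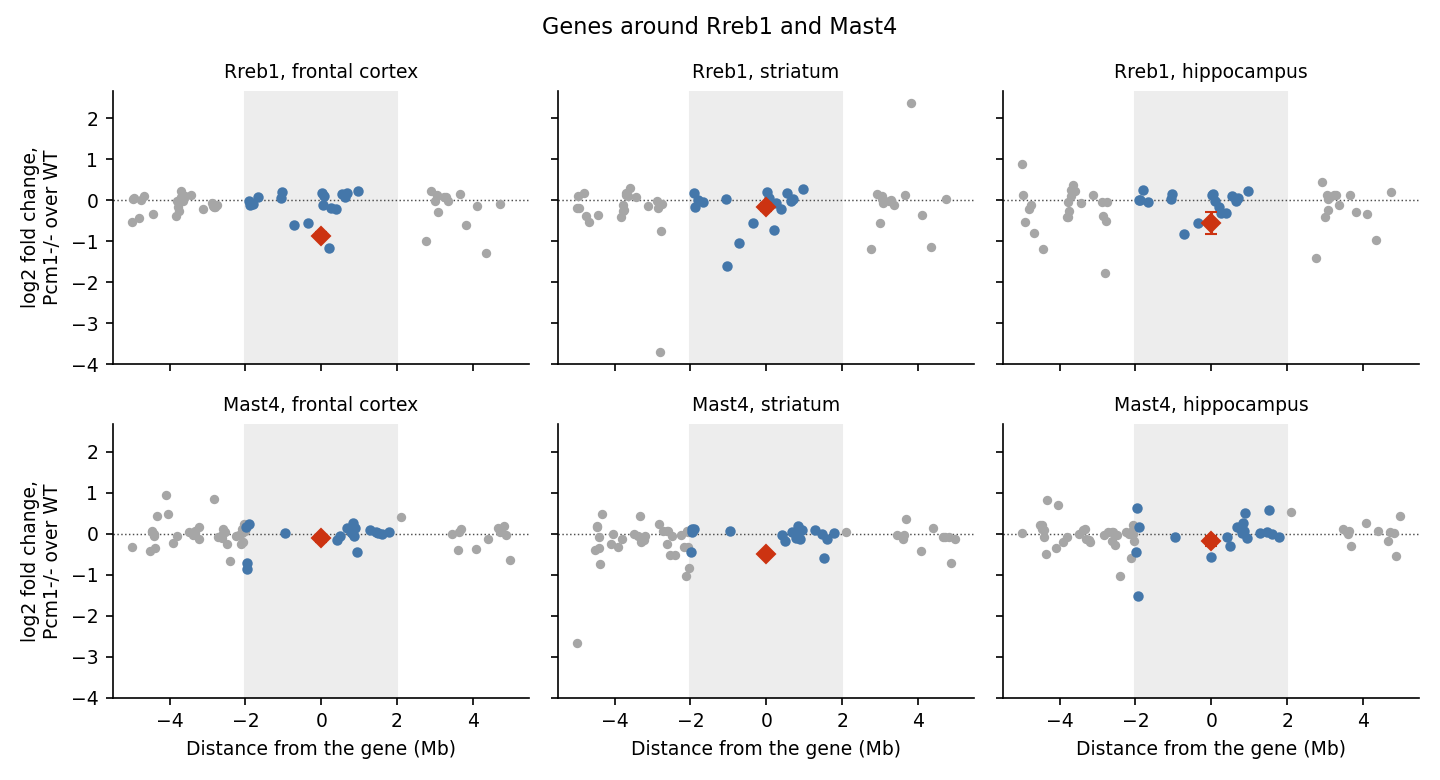
Log2 fold change of Pcm1-/- over WT against the distance from Rreb1 (top) or Mast4 (bottom) in Mb, for the tested genes within 5 Mb, with those within 2 Mb in blue on grey shading and the member as a red diamond with SE. None of the blue points passed the edgeR test, and their median in each panel lies between -0.04 and 0.02. Among the grey points, Edn1 near Rreb1 passed in frontal cortex (-1.28, edgeR adjusted p = 0.0475).

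In a fit of all 18 libraries, none of the 133 listed and neighbouring genes had a genotype difference that itself differed between regions (edgeR interaction test, smallest adjusted p = 0.50, with 9 at an unadjusted p under 0.05). Of all genes, 0.0114% passed that test and 5.54% had an unadjusted p under 0.05. That fit treats the 3 regions of an animal as separate samples.

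Markers of other cell types were compared with the same fits, and their part in the Rreb1 and Mast4 differences was not tested. All 8 oligodendrocyte markers had a lower value in Pcm1-/- mice in every region and none passed the test, with median log2 fold changes of -0.28 in frontal cortex, -0.40 in striatum and -0.61 in hippocampus. Their summed level was 1998 to 2668 CPM in WT and 1788 to 1897 CPM in mutant cortex, 9655 to 9854 and 5855 to 9497 CPM in striatum, and 5092 to 10142 and 3843 to 6316 CPM in hippocampus. The cortical and striatal groups did not overlap. Of single genes, 9.28% in cortex and 9.39% in striatum had every mutant library below every WT library. The 6 microglial, 5 endothelial and 5 blood markers also had lower values in mutants in every region, and none of them passed the test. The medians of the blood markers were -1.22, -1.02 and -1.54. Microglial sums were 302.2 to 404.9 CPM in WT and 259.4 to 294.1 CPM in mutant cortex, and endothelial sums 148.6 to 211.6 and 134.7 to 141.4 CPM. Neither these cortical groups nor those of the blood markers overlapped. In striatum the groups overlapped, with microglial sums of 386.1 to 543.0 and 343.0 to 393.7 CPM and endothelial sums of 137.3 to 184.7 and 139.4 to 145.8 CPM.

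The 6 astrocyte markers were mixed in direction, with medians of 0.00, -0.10 and -0.03. Striatal projection neuron markers summed to 259.9 to 291.2 CPM in mutant and 205.0 to 227.1 CPM in WT frontal cortex, where 6 of the 8 had a higher and 2 a lower value in mutants and 2 passed, Penk (49.2 ± 6.46 to 95.6 ± 11.0 CPM, log2 fold change 0.95, edgeR adjusted p = 0.00816) and Drd1 (11.6 ± 1.4 to 18.6 ± 0.792 CPM, 0.68, edgeR adjusted p = 0.0177). Of all genes tested, 1.74% passed in frontal cortex. In striatum the same sum was 6985 to 8033 CPM in WT and 8318 to 8951 CPM in mutants, with 0 of 8 passing. There 0.0285% of all genes passed. No marker of cortical or hippocampal neurons or of ependymal cells passed. The 6 choroid plexus markers did not pass in any region, and in striatum their median of -3.48 follows the 1 WT library with 6064 CPM.

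**Figure D5:**
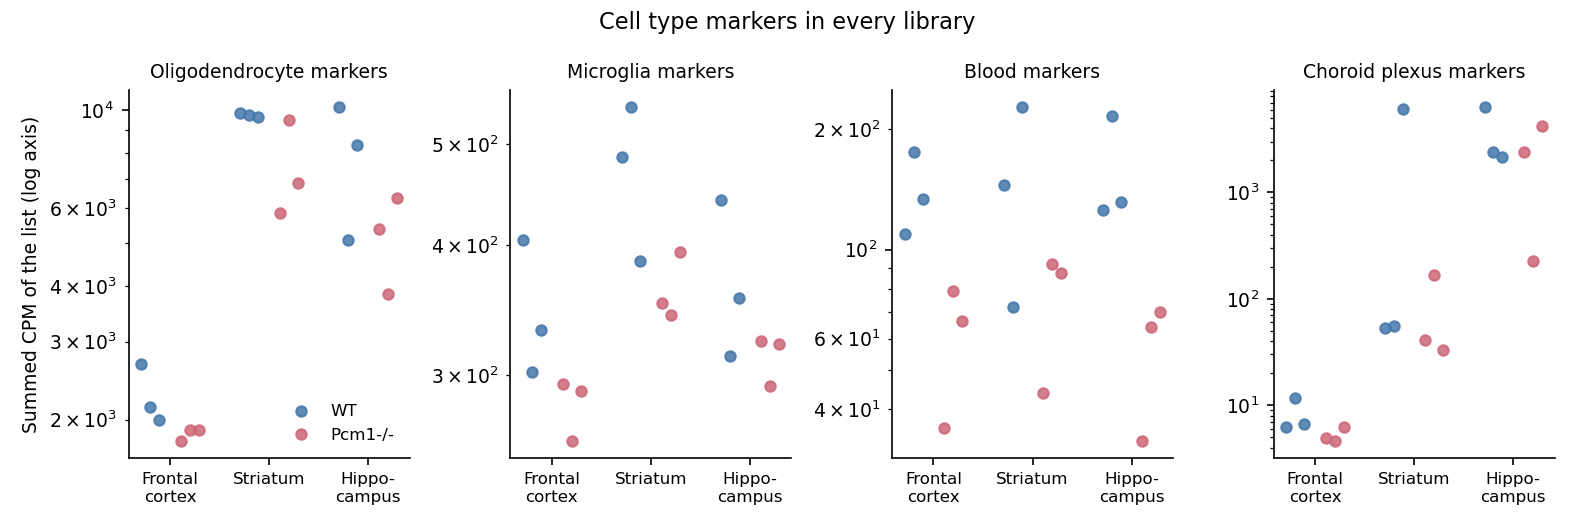
Summed CPM (log axes) of oligodendrocyte, microglial, blood and choroid plexus markers in every library, blue for WT and red for Pcm1-/-. The oligodendrocyte sums of mutants lie below those of WT in cortex and striatum, and WT striatum replicate 3, at 6064 CPM of choroid plexus markers, lies far above the other striatal points, which reach 168.5 CPM.

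Genes whose levels follow those of Rreb1 and Mast4 were ranked by the correlation of log2 CPM across the 18 libraries among 12784 genes, as a description. The 18 points share 6 animals, 3 regions and the genotype contrast. Nearest to Rreb1 were Kmt5a, a histone H4 methyltransferase (r = 0.895), Ascc2 (0.892), the RNA-binding protein gene Rbpms2 (0.881), the cyclin gene Ccnt2 (0.873) and Rhoj (0.866). After the mean of each region was removed they were Srrm2, a scaffold of nuclear speckles (0.939), Nktr (0.924), Akap13 (0.911), the non-coding RNA Ftx (0.907) and Trank1 (0.901), so that the lists share no gene.

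Nearest to Mast4 were Serpinb9, an inhibitor of granzyme B (r = 0.966), the PDZ scaffold gene Mpdz (0.948), Dusp23 (0.938), Washc4 of the WASH complex (0.937) and Angpt1, a ligand of the Tie2 receptor (0.936). With region means removed they were the Akt phosphatase gene Phlpp1 (0.934), Plcl1 (0.913), the retinoblastoma relative Rbl2 (0.878), Lrpprc (0.877) and Enpp4 (0.876). The 2 members were not alike in pattern: r between them was 0.209, or 0.249 with region means removed, and Mast4 ranked 4203 among the genes by likeness to Rreb1. With rank correlation, 0 of the 5 nearest to Rreb1 and 2 of the 5 nearest to Mast4 stayed among the first 5, so these names are loosely fixed.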

How the data were processed

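Each library was one region of one animal, and the authors deposited raw counts per gene for each of the 18 libraries, made per the study's methods from stranded mRNA libraries by trimming adapters and reads under 20 bases with Trim Galore and cutadapt, alignment with STAR and counting with HTSeq on Ensembl release 73 genes. Tool versions and the strand setting of the counting are not given in the sources used here. The 5 summary rows of each file were left out. Groups came from the labelled genotype, region and replicate, and the animal and lane from the file and description labels.

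Genes with at least 10 counts in any library (17545) were kept, TMM factors were computed, and the quasi-likelihood test of edgeR 4.0.16 in R 4.3.3 was fitted on all of them, per region for genotype (3 WT and 3 Pcm1-/-) and on the 9 libraries of a genotype for region, with Benjamini-Hochberg adjustment and a call at an adjusted p under 0.05. DESeq2 1.42.0, other filters, size factors, lane, blocks and leaving out each library were the alternatives. Replicates are separate animals. Likeness used log2 CPM with a prior count of 2 in genes of mean log2 CPM of at least 1. Names and positions came from GENCODE M21, and promoters from RefSeq. The fits were tested on simulated counts.

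The members and lists were chosen with earlier results of these data known. The genes named are both members, every MAST kinase gene, list genes called between genotypes (at most 4 per list and region), the nearest tested neighbours on each side and those called, the 5 most alike per measure, and Pcm1. Genes named outside that rule were chosen after their values were seen.

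The replicate numbers were checked as pairs of a WT and a Pcm1-/- library. Deviations of same-numbered libraries correlated at 0.167 on average in frontal cortex, -0.0823 in striatum and 0.265 in hippocampus. Differently numbered libraries averaged -0.0833, 0.0444 and -0.130. Same-numbered pairs thus correlated more in cortex and hippocampus but not in striatum, and 1 or more were under 0.1 in every region. The numbers were not taken to pair genotypes, and a fit with the number as a block was an alternative. Libraries of one animal correlated across regions at 0.267 on average in WT and 0.198 in Pcm1-/- mice, and the animal block is therefore given beside each region test. The animal is read from the label of each file.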

Additional observations from a re-analysis of the deposited data

How the results depend on the processing

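The direction of the genotype difference of Rreb1 and Mast4 held in all 3 regions under every alternative run, with Rreb1 in frontal cortex at -0.91 to -0.80 and Mast4 in striatum at -0.53 to -0.47 on the log2 scale. In hippocampus Rreb1 ranged from -0.79 to -0.23, the latter without WT replicate 1. For the WT regions, leaving out a library gave Rreb1 0.34 to 0.89 for hippocampus over cortex (call lost in 7 of 9 fits) and -0.72 to -0.20 for striatum over hippocampus (call gained once), and Mast4 -0.41 to -0.29 for striatum over cortex (lost in 3) and 0.26 to 0.44 for hippocampus over cortex (lost in 7). Among Pcm1-/- regions, the Rreb1 difference between striatum and hippocampus ran from -0.26 to 0.10 on leaving out a library, and that between striatum and cortex was 0.68 with lane as a covariate. With lane as a covariate the WT difference of Rreb1 was 0.36 for striatum over cortex and -0.24 for striatum over hippocampus. With the replicate number as a replicate block, Mast4 in WT hippocampus over cortex was 0.32 and missed the threshold (edgeR adjusted p = 0.0551), 2 listed genes were called in frontal cortex (Mapk3 and Dusp5) and 1 neighbour (Ly86). The animal block changed no region call. Listed genes called in frontal cortex numbered 1, against 3 by DESeq2, 0 with lane as a covariate and 0 to 4 on leaving out a library, and neighbours called there 0, against 1 by DESeq2 and 0 to 4. Over all genes the share called in frontal cortex was 1.74%, against 4.88% by DESeq2, 0.165% with lane, 3.79% with the replicate number as a block and 0.0627% to 4.70% on leaving out a library. In striatum DESeq2 called 4 listed genes and 1 neighbour, and in hippocampus 2 listed genes. Rank correlation kept 0 and 3 of the 5 genes nearest to Rreb1 and 2 and 1 of those nearest to Mast4, without and with region means removed. The cause of these changes was not tested, and lane could not be fitted for genotype in striatum. Rreb1 had as few as 374 counts in a library and Mast4 1200.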
